A study of Mus musculus with 4 samples.

Results

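Cajal-Retzius nuclei were examined in single-nucleus RNA sequencing of mouse hippocampus. They were picked by their counts of 7 genes: at least 2 of the transcription factor genes Trp73, Lhx1, Lhx5 and Ebf3 were detected, Reln had at least 1 unique molecular identifier (UMI, a tag that counts captured RNA molecules), and Gad1 and Gad2 together had fewer than 3 UMIs. The rule found 187 nuclei among 37661 kept nuclei. A nucleus was kept if 500 or more genes were detected in it, if it had 1000 or more UMIs, and if less than 5% of these were mitochondrial. There were 4 groups of female mice, 8 weeks old at the start, each measured as 1 library: WT (C57BL/6J) without exercise, WT with exercise, APPNL-G-F knock-in without exercise and APPNL-G-F knock-in with exercise, the exercise being wheel running for 10 weeks. Groups follow the sample titles, because the treatment text names a wheel for every sample. The number of animals per library is not stated, so differences between groups are given without a p-value. Values below follow the group order just given.

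Cajal-Retzius cells are among the earliest-born neurons of the cortex and hippocampus. They lie in the outermost layer, where they secrete reelin, an extracellular protein that binds the receptors VLDLR and APOER2 on neighbouring neurons and signals through the adaptor DAB1 to position migrating cells. Most of those in the neocortex die after birth, whereas many around the hippocampal fissure persist into adult life. Those from the cortical hem depend on p73, the product of Trp73. They are glutamatergic, unlike the inhibitory neurons that also make reelin in the adult hippocampus.

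The 2 printed promoters belong to genes that were higher in these nuclei in all 4 libraries, and they show where the sequence TAATTA lies, which many homeodomain proteins, the LIM-homeodomain family of Lhx1 and Lhx5 among them, can bind. They come from RefSeq on GRCm38.p6, run from 250 bases before to 50 after the start of a RefSeq transcript, and are written on the gene's own strand with TAATTA in capitals. Tmem163, a zinc transporter of vesicle membranes, has its promoter at chr1:127677972-127678271 on the minus strand, and a GENCODE transcript of the gene starts further upstream, at 127679548. One of the promoters of Slc17a6, the vesicular glutamate transporter VGLUT2, lies at chr7:51624387-51624686 on the plus strand.
Tmem163: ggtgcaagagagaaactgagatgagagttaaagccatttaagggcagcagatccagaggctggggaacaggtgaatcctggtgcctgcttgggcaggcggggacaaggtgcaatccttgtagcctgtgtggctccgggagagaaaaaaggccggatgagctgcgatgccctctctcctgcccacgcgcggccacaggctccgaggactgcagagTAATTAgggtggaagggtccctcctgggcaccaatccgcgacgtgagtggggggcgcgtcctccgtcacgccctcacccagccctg
Slc17a6: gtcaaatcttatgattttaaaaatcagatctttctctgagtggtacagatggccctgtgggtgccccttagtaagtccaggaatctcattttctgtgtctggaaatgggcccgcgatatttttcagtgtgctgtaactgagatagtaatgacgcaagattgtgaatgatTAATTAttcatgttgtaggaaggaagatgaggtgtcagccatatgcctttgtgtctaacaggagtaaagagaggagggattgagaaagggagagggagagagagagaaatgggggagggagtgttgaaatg
Of 26 genes searched (those of the rule without Gad1 and Gad2, the genes named as higher below, and Nhlh2, Lhx1os and Slc17a6), 18 had an entry, with 21 promoter windows. TAATTA, which reads the same on both strands, was in 2 of the 21 windows, or 9.52%. It was in 5.29% of all 32851 windows of this length. A match is only a run of letters, and no binding was measured here.

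The rule's own genes are given as a description. Reln stood at 5670, 4151, 3834 and 6016 CPM, which are UMIs scaled to the total of the summed nuclei, over the Cajal-Retzius nuclei of the 4 libraries, against 723 CPM in Reln-expressing inhibitory nuclei (Reln at 1 UMI or more, Gad1 and Gad2 at 3 or more, 1183 nuclei) and 16.02 CPM in glutamatergic nuclei (Slc17a7 at 2 UMIs or more, 14034 nuclei). Trp73 stood at 409, 258, 464 and 604 CPM and Ebf3 at 414, 248, 267 and 338 CPM. Trp73 was detected in 94.1% of the 187 nuclei, Ebf3 in 83.4%, Lhx1 in 30.5% and Lhx5 in 25.1%. Of the nuclei, 130 had 2 of the 4 factors, 52 had 3 and 5 had all 4. Trp73 overlaps Trp73os on the opposite strand, and the sources used here do not state whether strand was used in counting.

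The 4 libraries held 91676884, 66573909, 64158446 and 76111556 UMIs, and the Cajal-Retzius nuclei 200529, 201646, 198213 and 399076 of them. Their median depth was 2659, 2563, 2161 and 4147 UMIs per nucleus, below the 6794, 7619, 5362 and 6486 UMIs of all kept nuclei. The lowest barcode in the first 3 matrices had 501, 500 and 504 UMIs and in the last 1199, so the knock-in library with exercise had been deposited with a higher floor. Of 38465 distinct barcodes, 169 occurred in more than 1 library, and 1 Cajal-Retzius nucleus carried such a barcode.

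The 187 nuclei were not of 1 kind. In a map built from 2000 variable genes that left out the rule's genes, 55.0% of their 15 nearest neighbours were again Cajal-Retzius nuclei, against 0.158% for other kept nuclei. Of the 187, 146 had 3 or more such neighbours and are called near nuclei here. The other 41 (8, 8, 11 and 14 per library) are called far nuclei, and 27 of them had no such neighbour. Near nuclei were shallow, with a median of 2627 UMIs, and far nuclei deep, with a median of 11098 UMIs, so that the far nuclei supplied 54.2%, 72.4%, 51.2% and 36.2% of the Cajal-Retzius UMIs. The 5 CA1 pyramidal markers, all detected, summed to 3117 CPM in far and 936 CPM in near nuclei. Their sum was 3204 CPM in glutamatergic, 4275 CPM in inhibitory and 2972 CPM in oligodendrocyte nuclei, so it was not particular to CA1 cells. The 5 CA3 markers summed to 1154 CPM in far and 419 CPM in near nuclei, but the 5 granule cell markers to 176 and 485 CPM. Slc17a7, the vesicular transporter VGLUT1 of hippocampal principal neurons, was detected in 73.2% of far and 21.2% of near nuclei. The doublet caller marked 9 of the 41 far and 11 of the 146 near nuclei, beside 7.75% of all kept nuclei, so far nuclei were marked more often. Results are therefore given for all 187 nuclei and, as a description, for near nuclei. Near nuclei were separated after these data were seen and by their own expression. Where edgeR calls in near nuclei are given, they are for that reason no independent test.

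**Figure D1:**
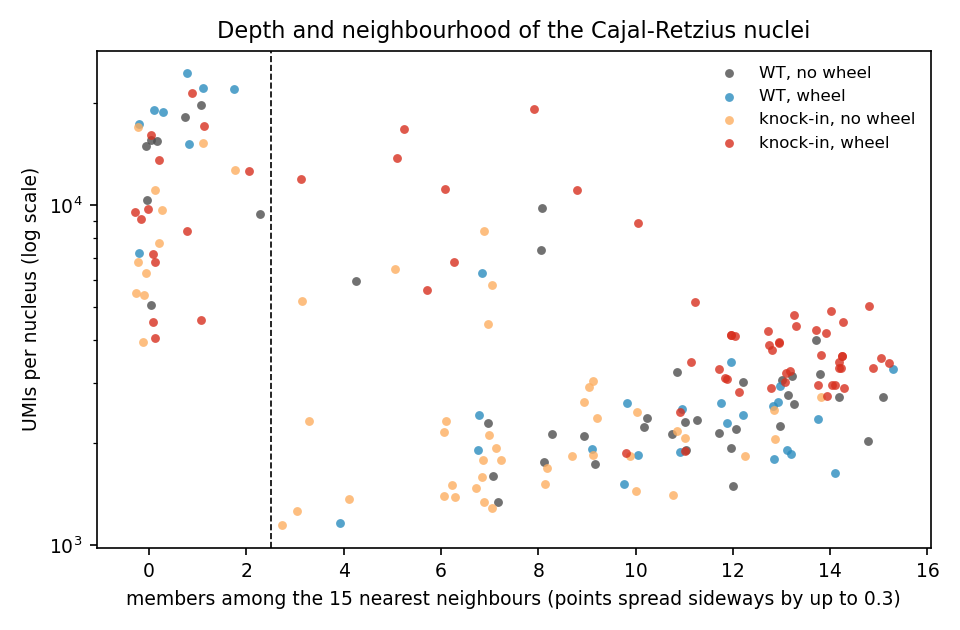
Each point is 1 of the 187 Cajal-Retzius nuclei. The x axis gives how many of its 15 nearest neighbours were Cajal-Retzius nuclei, the y axis its UMIs on a log scale, the colour its library, and the dashed line separates the 41 far from the 146 near nuclei. Far nuclei lie between 3956 and 24417 UMIs, while near nuclei lie between 1142 and 19203 UMIs.

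At the edge of the rule, 157 nuclei with Reln and few Gad UMIs had 1 of the 4 factors. Their median was 9 Reln UMIs and 56.7% of them had Ndnf, against 20 Reln UMIs and 90.0% in the 130 nuclei with 2 factors. Another 15 nuclei had 2 or more factors but no Reln, and 4 had 2 or more factors and Reln but too many Gad UMIs, with a median depth of 68850 UMIs. Outside the rule, 55 nuclei had 8 or more Cajal-Retzius neighbours. All 55 had Reln, 48 had 1 of the factors and 7 had none, and their median depth was 1909 UMIs. The rule thus left out shallow nuclei that lay among its members.

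Several listed markers of Cajal-Retzius cells that the rule did not use were also high. Ndnf, which encodes a secreted neurotrophic factor and marks these cells, stood at 878, 808, 1044 and 749 CPM, against 38.7, 34.9, 53.6 and 24.3 CPM in Reln-expressing inhibitory nuclei. The groups did not overlap, and the difference was a log2 fold change of 4.48 (SE 0.15, edgeR quasi-likelihood test with library as a block, adjusted p = 4.73e-16, higher in 4 of 4 libraries). Such p-values rest on how far the difference between classes varied over the 4 libraries. These belong to different groups, since there are no replicates. In glutamatergic nuclei Ndnf was at 1.95, 1.69, 2.37 and 2.29 CPM, a log2 fold change of 8.44 (SE 0.16). It was detected in 89.8% of Cajal-Retzius nuclei, 18.9% of Reln-expressing inhibitory nuclei and 1.36% of 4996 oligodendrocytes, which should lack it, at median depths of 3147, 10097 and 2071 UMIs. In near nuclei Ndnf reached 1590, 2120, 1684 and 1030 CPM. The gene lies on chromosome 6 from 65671590 to 65712326 (GRCm38).

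Of 10 Cajal-Retzius markers outside the rule, Ndnf included, 7 could be tested against inhibitory nuclei and all 7 were higher, where 4.72% of the 10520 genes tested were called higher and 5.99% lower. Against glutamatergic nuclei 8 of 10 were higher, where 4.95% of 15284 genes were called higher and 8.41% lower. The list's median log2 fold change was 4.48 and 3.61, beside -0.01 and -0.10 over all genes tested. The list was chosen with earlier results of these data known, so these counts describe the nuclei and are no independent test of their identity. Lhx1os, a noncoding gene beside the rule's Lhx1, stood at 44.9, 39.7, 65.6 and 67.7 CPM and had no UMI in the inhibitory nuclei, which makes it at least 340-fold higher with 3 UMIs over that class as the floor. Nhlh2, a basic helix-loop-helix factor of young neurons, stood at 39.9, 24.8, 75.7 and 42.6 CPM and was 6.90 higher on the log2 scale (SE 0.53, edgeR adjusted p = 1.43e-09). Both were near 0 in the other classes.

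Slc17a6 stood at 74.8, 69.4, 95.9 and 72.7 CPM, against 2.69 CPM in inhibitory and 4.04 CPM in glutamatergic nuclei, with log2 fold changes of 4.73 (SE 0.35) and 4.01 (SE 0.31) and edgeR adjusted p = 7.44e-10 and 3.20e-35. Its partner Slc17a7 stood at 115, 114, 126 and 165 CPM over all Cajal-Retzius nuclei and at 43.6, 35.9, 82.7 and 122 CPM in near nuclei, against 309 CPM in the glutamatergic nuclei that were chosen on it. The VGLUT2 gene was thus raised and the VGLUT1 gene was lower where the far nuclei were left out. Cacna2d2, a calcium channel subunit, stood at 304, 283, 409 and 376 CPM and was higher by 2.32 (SE 0.16, edgeR adjusted p = 1.87e-10) and 5.50 (SE 0.17). Ebf1 (2.22, SE 0.55, edgeR adjusted p = 0.00810) and Tbr1, a factor of early glutamatergic neurons (2.69, SE 0.56, edgeR adjusted p = 0.00158), were also above inhibitory nuclei. The Ebf1 call was lost without either knock-in library (edgeR adjusted p = 0.0864 and 0.0721).

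Calretinin, encoded by Calb2, was above glutamatergic nuclei by 3.20 on the log2 scale (SE 0.60, edgeR adjusted p = 2.76e-06) at 9.97, 19.8, 45.4 and 2.51 CPM. Only 13 of the 187 nuclei (6.95%) had a Calb2 UMI. Ebf2 and Cdkn1a, which encodes the cell cycle inhibitor p21, were found in 5 and 4 nuclei and were not called against glutamatergic nuclei (edgeR adjusted p = 0.185 and 0.194).

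**Figure D2:**
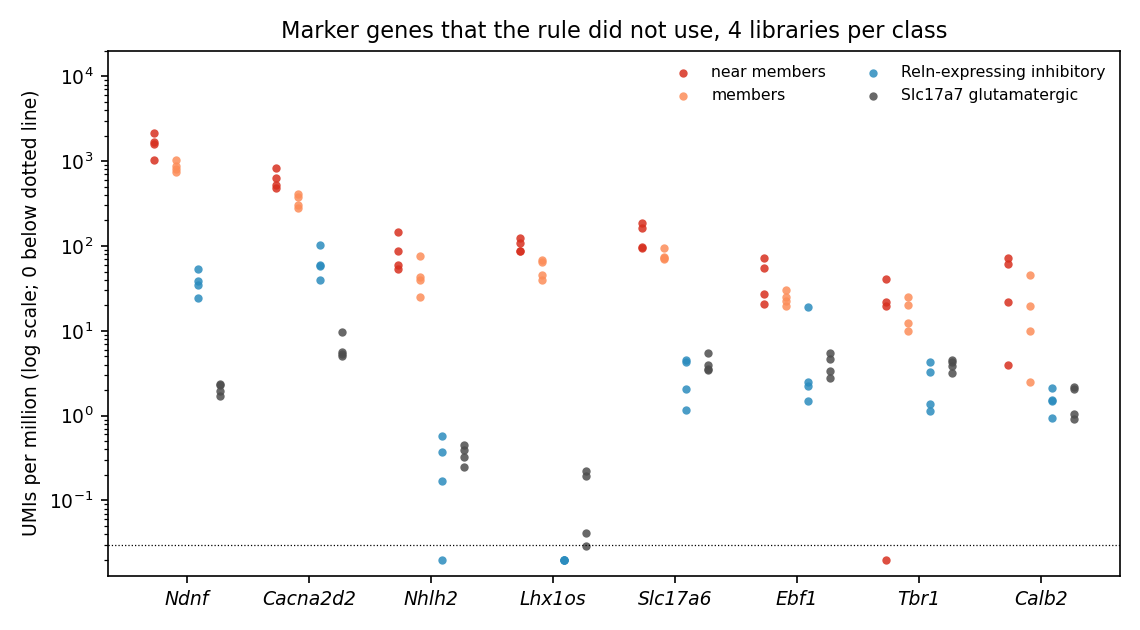
CPM on a log scale for 8 genes that the rule did not use, with 1 point per library in near nuclei, all Cajal-Retzius nuclei, Reln-expressing inhibitory nuclei and Slc17a7 glutamatergic nuclei. For Ndnf, Cacna2d2, Nhlh2, Lhx1os and Slc17a6 the Cajal-Retzius points lie above every point of the other classes.

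Compared with Reln-expressing inhibitory nuclei, 497 genes were higher and 630 lower in the Cajal-Retzius nuclei. Dach1, a transcriptional regulator of the retinal determination network, stood highest among the 12 named genes at 1192, 947, 1115 and 895 CPM against 17.1, 24.9, 18.7 and 18.4 CPM, a log2 fold change of 5.62 (SE 0.16, edgeR adjusted p = 3.77e-17). Its partner in that network Eya2, a coactivator with phosphatase activity, was higher by 5.28 (SE 0.33, edgeR adjusted p = 3.60e-11). Pik3c2g, a class II phosphoinositide kinase, had the largest log2 fold change of the genes with at least 100 UMIs that the naming rule allows, 6.13 (SE 0.36, edgeR adjusted p = 1.33e-11), with 229, 203, 126 and 175 CPM. The other genes most raised by the naming rule were Lrig3, a transmembrane modulator of growth factor receptors (5.50), Eln, which encodes elastin (4.88), Angpt1, the TIE2 ligand angiopoietin 1 (3.36), Plekha7, a junction protein (3.13), Cobll1 (3.04) and the chromatin remodeller Chd7 (2.98). Diablo, a mitochondrial protein that relieves caspase inhibition, was higher by 2.98 but overlaps B3gnt4 on the other strand. Tmem163 was higher by 3.60 (SE 0.35, edgeR adjusted p = 7.04e-08) and is described by library below. All 12, Ndnf included, were higher in 4 of 4 libraries, which the naming rule requires. They were at least as high in near nuclei, but those were separated by their own expression, so neither adds independent evidence.

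Among the genes most lowered against inhibitory nuclei were regulators of forebrain interneurons. Lhx6, needed for interneurons of the medial ganglionic eminence, had no UMI in any of the 187 nuclei against 25.7, 16.9, 24.0 and 43.3 CPM, at least 9.47-fold lower with 3 UMIs over all Cajal-Retzius nuclei as the floor. Dlx6os1, which overlaps Dlx6, had 9 UMIs. Of 13 genes of GABAergic identity, 8 could be tested and all 8 were lower, with a median log2 fold change of -3.89, or -3.42 with Lhx6 at its bound. Among them were Adarb2, Dlx1, Dlx6os1, Lamp5, Lhx6 and Slc32a1, which encodes the vesicular GABA transporter. Slc32a1 had 4 UMIs, all in the WT library without exercise and none in near nuclei. Its call (edgeR adjusted p = 0.0235) was lost without WT with exercise, knock-in without exercise or knock-in with exercise (edgeR adjusted p = 0.0625, 0.207 and 0.140), and that of Dlx1 (-4.19, edgeR adjusted p = 0.00154) without knock-in with exercise (edgeR adjusted p = 0.0908). Because Gad counts were in both class rules, the direction of these genes is not independent of how the classes were chosen.

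Other genes lowest against inhibitory nuclei encode secreted or matrix proteins and receptors. Igf1, insulin-like growth factor 1, had 4 UMIs against 99.97, 71.3, 124 and 93.6 CPM (-4.67, SE 0.41, edgeR adjusted p = 1.12e-08), and none of them fell in near nuclei. Sema3c, a secreted semaphorin, was lower at -5.63 with 1 UMI, and the matrix genes Hapln1 (-4.96), Frem1 (-4.57) and Col26a1 (-4.43) were lower too. Esr1, the oestrogen receptor gene, had 1 UMI (-4.50). Npffr1 and Mageb18 had none, at least 7.34-fold and 5.83-fold lower with the same floor, and Sox1ot was lower at -5.59.

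Compared with glutamatergic nuclei, 756 genes were higher and 1286 lower. Beside Ndnf, Pik3c2g (6.62), Lrig3 (6.37), Cacna2d2, Dach1 (5.41), Eln (4.91) and Angpt1 (3.81), the most raised were Utrn, which encodes the dystrophin relative utrophin, at 982, 620, 752 and 995 CPM against 12.4, 12.4, 12.8 and 16.7 CPM (5.68, SE 0.14), Hs3st5, a heparan sulfate sulfotransferase (4.89, SE 0.14), Nxn, nucleoredoxin (4.69, SE 0.24), Bmper, which binds bone morphogenetic proteins (3.60, SE 0.24), and the cadherin Cdh4 (3.57, SE 0.13). Hs3st5 was detected in 79.7% of Cajal-Retzius nuclei and in 60.6% of inhibitory nuclei, and Utrn in 94.1% and 59.9%, at median depths of 3147 and 10097 UMIs. Both were above inhibitory nuclei as well (1.51 and 2.04, edgeR adjusted p = 2.10e-08 and 4.36e-11). The 12 genes most lowered against glutamatergic nuclei had between 0 and 4 UMIs each in the 187 nuclei, and 7 of the 12 calls were lost when 1 of the libraries was left out. Kl, which encodes klotho, had no UMI and was at least 3.18-fold lower with the same floor. Prox1os, which lies opposite the granule cell gene Prox1, had 3 UMIs (-2.96, SE 0.62, edgeR adjusted p = 2.97e-05).

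Receptor genes for fast transmitters were called lower more often than higher. Over all genes tested, 4.72% were called higher and 5.99% lower than in inhibitory nuclei. Against glutamatergic nuclei these shares were 4.95% and 8.41%. The list counts here and below are to be read beside them. Of the NMDA receptor genes, 4 of 5 tested were lower than in inhibitory nuclei and 3 of 6 lower than in glutamatergic nuclei, with medians of -0.55 and -0.48. Grin3a was lower than in inhibitory nuclei but higher than in glutamatergic nuclei. Grin2b stood at 1052, 1250, 1317 and 1095 CPM over all Cajal-Retzius nuclei and 447, 305, 620 and 974.5 CPM in near nuclei, against 2152 CPM in glutamatergic nuclei (-1.14, SE 0.12, edgeR adjusted p = 8.30e-19). Grin2a was likewise lower against both classes (-0.50 and -1.27, edgeR adjusted p = 0.00380 and 3.34e-23). Near nuclei had less of both subunit genes than the full set, at 734 and 1223 CPM against 1162 and 1753 CPM.

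AMPA and kainate receptor genes were lower for 6 of 9 in each comparison, with medians of -0.75 and -0.71. Against glutamatergic nuclei Gria4 was the exception that was also high in near nuclei: it stood at 1172, 709, 822 and 824 CPM over all and 1075 CPM in near nuclei, against 312 CPM (1.22, SE 0.12, edgeR adjusted p = 2.16e-21). Over all Cajal-Retzius nuclei Gria4 was still below the inhibitory nuclei (-0.75, SE 0.13, edgeR adjusted p = 0.000180). In near nuclei, as a description, edgeR did not call it against inhibitory nuclei. Grik1 was above glutamatergic nuclei (1.57, edgeR adjusted p = 6.51e-17), but stood at 216 CPM in far and 66.2 CPM in near nuclei, where the log2 fold change was 0.14. No GABA or glycine receptor gene was higher, and 6 of 16 and 9 of 17 were lower (medians -0.35 and -0.66). Among them, Gabra2 was lower than in glutamatergic nuclei (-0.74, SE 0.13, edgeR adjusted p = 1.48e-07), at 433 against 632 CPM. Neuromodulator receptor genes were lower for 9 of 14 and 6 of 20, and higher for 0 and 1.

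A few potassium channel genes rose against both classes. Kcnh7, an ERG-type channel, stood at 3695, 3015, 3158 and 2829 CPM, against 888 and 808 CPM in the other classes (1.73, SE 0.13, and 1.71, SE 0.12, edgeR adjusted p = 1.43e-09 and 6.69e-44). Its reads overlap Gca on the other strand. Kcnb2, a delayed rectifier of the Kv2 group, stood at 2304, 2346, 2432 and 2822 CPM and was higher by 1.62 (SE 0.12, edgeR adjusted p = 4.60e-10) and 1.36 (SE 0.12, edgeR adjusted p = 1.76e-28). No library of either class reached the Cajal-Retzius level of these channels. Over the list of potassium and HCN channels, 3 of 28 were higher and 5 lower than in inhibitory nuclei, and 4 and 15 against glutamatergic nuclei. Of 16 sodium and calcium channel genes, 2 were higher in each comparison, Cacna2d1 and Cacna2d2, and 2 and 7 lower.

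Chloride transport was followed because it sets whether GABA excites or inhibits a neuron. Slc12a2, the chloride importer NKCC1, stood at 74.8, 39.7, 45.4 and 100 CPM and was not called in either comparison (0.19, SE 0.23, and 0.36, SE 0.21, edgeR adjusted p = 0.729 and 0.320). Slc12a5, the exporter KCC2, stood at 110, 54.6, 70.6 and 110 CPM and was below glutamatergic nuclei (-0.75, SE 0.18, edgeR adjusted p = 0.000321), with no call against inhibitory nuclei (-0.42, edgeR adjusted p = 0.145). In near nuclei, as a description, edgeR called Slc12a5 lower than in both classes and did not call Slc12a2. Slc12a4, the exporter KCC1, was higher in both (4.35 and 3.79, edgeR adjusted p = 0.000583 and 1.79e-05) but had 10 UMIs in all.

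Guidance and adhesion genes moved in both directions. Of 38 axon guidance genes tested, 10 were higher and 12 lower than in inhibitory nuclei, and of 41 tested 8 were higher and 19 lower than in glutamatergic nuclei, with medians of 0.03 and -0.48. In near nuclei, edgeR called 7 higher and 19 lower against inhibitory nuclei and 7 and 23 against glutamatergic nuclei, with medians of -0.72 and -1.16. These calls are only a description, because near nuclei were separated by their own expression. Robo2, a Slit receptor, stood at 3137, 2217, 2598 and 2867 CPM, against 900 and 700 CPM (1.48, SE 0.13, and 1.69, SE 0.12, edgeR adjusted p = 9.18e-09 and 5.58e-43). Its relative Robo1 was instead lower than in inhibitory nuclei (-1.01, SE 0.15, edgeR adjusted p = 2.95e-05). Epha3 was higher in both (1.06 and 1.18, edgeR adjusted p = 3.30e-06 and 3.64e-19), and the neuropilin gene Nrp2 lower in both (-0.99 and -1.04, edgeR adjusted p = 0.00502 and 1.33e-06). Of the 10 higher calls against inhibitory nuclei, 3 stood below 0 in near nuclei, namely Slit2 (0.54 against -0.92), Slit3 (0.43 against -0.68) and Ephb1 (0.90 against -0.02). The Slit2 call was also lost without WT without exercise, WT with exercise or knock-in with exercise (edgeR adjusted p = 0.183, 0.156 and 0.102), and the Slit3 call without WT without exercise, knock-in without exercise or knock-in with exercise (edgeR adjusted p = 0.122, 0.327 and 0.0532).

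Among synapse organisers, 4 of 28 were higher and 11 lower than in inhibitory nuclei, and 4 and 14 of 29 against glutamatergic nuclei. Cntnap2, a neurexin-like adhesion gene, stood at 8243, 7930, 7704 and 5693 CPM against 3218 and 3104 CPM (1.08 and 1.01, edgeR adjusted p = 2.08e-07 and 3.98e-15). Nrxn3 was lower in both (-1.51 and -0.83, edgeR adjusted p = 7.11e-07 and 2.49e-10) and stood at 1620 CPM in near and 5186 CPM in far nuclei, the latter close to the 5106 CPM of glutamatergic nuclei. Grin2a and Grin2b were also higher in far nuclei (2281 and 1588 CPM) than in near nuclei (1223 and 734 CPM).

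**Figure D3:**
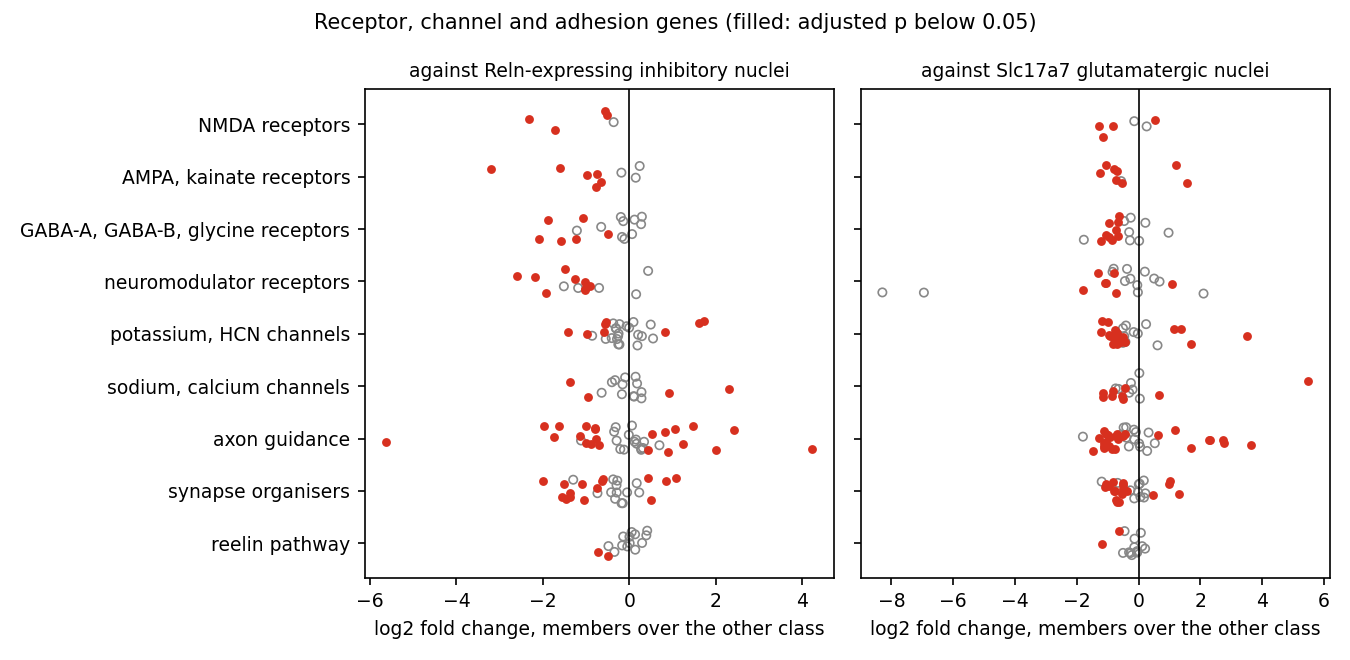
Log2 fold changes of single genes, by list, for the Cajal-Retzius nuclei over Reln-expressing inhibitory nuclei (left) and Slc17a7 glutamatergic nuclei (right). Filled points passed an adjusted p of 0.05 in edgeR, and receptor lists lie mostly below 0 in both panels while guidance genes lie on both sides.

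Of 15 tested genes of the reelin pathway without Reln, none was higher and 2 were lower in each comparison, with medians of 0.01 and -0.14. With 4.72% and 4.95% of all genes higher and all-gene medians of -0.01 and -0.10, these counts do not set the list apart. Dab1, the adaptor, stood at 1805, 1894, 1246 and 1889 CPM over all and 1263 CPM in near nuclei, against 3236 CPM in glutamatergic nuclei (-1.18, SE 0.12, edgeR adjusted p = 3.46e-20) and 2280 CPM in inhibitory nuclei (-0.49, edgeR adjusted p = 0.00653, and 0.0596 with the knock-in library without exercise left out). Vldlr stood at 29.9, 24.8, 30.3 and 22.6 CPM and was not called.

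Some other secreted factors were higher. Nrg1, neuregulin 1, stood at 1750, 2073, 1937 and 2533 CPM against 678 and 891 CPM (1.54, SE 0.15, and 0.97, SE 0.12, edgeR adjusted p = 7.04e-08 and 2.56e-14). Cxcl12, the chemokine through which the meninges hold Cajal-Retzius cells at the surface, was itself higher in both (2.51 and 2.08, edgeR adjusted p = 0.000790 and 3.85e-05), at 29.9, 19.8, 40.4 and 17.5 CPM. Of 22 secreted signals tested, 4 were higher and 9 lower than in inhibitory nuclei, and of 26 tested 9 were higher and 5 lower than in glutamatergic nuclei. In near nuclei, edgeR called 5 of 24 higher and 5 lower than in glutamatergic nuclei, with a median of -0.04 in place of 0.52. Nxph1, Nxph4, Penk and Pnoc were no longer called there. These near calls are again only a description. App, the gene altered in the knock-in, stood at 653, 610, 621 and 486 CPM and was not called in either comparison (0.01, SE 0.13, and 0.06, SE 0.12). Counts per gene do not tell the wild-type from the knock-in App RNA.

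Cajal-Retzius nuclei made up 40 of 11220 kept nuclei in WT without exercise, 31 of 6887 in WT with exercise, 51 of 10093 in knock-in without exercise and 65 of 9461 in knock-in with exercise. These shares were 0.357% (95% Clopper-Pearson interval 0.255 to 0.485), 0.450% (0.306 to 0.638), 0.505% (0.376 to 0.664) and 0.687% (0.531 to 0.875). Only the lowest and highest intervals did not overlap, and intervals cover counting error only. The order of the values was not the same after thinning. Each nucleus with 2000 or more UMIs was thinned to 2000 before the rule was applied. The shares were then 0.216% (0.134 to 0.330), 0.217% (0.116 to 0.371), 0.179% (0.1002 to 0.295) and 0.410% (0.288 to 0.568), with 9733, 5995, 8382 and 8774 nuclei deep enough. Of the 40, 31, 51 and 65 Cajal-Retzius nuclei, 33, 21, 30 and 63 were that deep, so the libraries lost unequal parts of them. At 1000 UMIs, which all kept nuclei reach, the shares were 0.143% (0.0815 to 0.231), 0.189% (0.101 to 0.323), 0.218% (0.137 to 0.330) and 0.137% (0.0732 to 0.235), from 16, 13, 22 and 13 nuclei. All 4 intervals overlapped at both depths, at 2000 UMIs only narrowly for the knock-in libraries. Overlap does not show that shares are equal. The knock-in library with exercise was highest at 2000 and lowest at 1000 UMIs, and no order was tested. How nuclei were lost in preparation was not measured, so fewer Cajal-Retzius cells and fewer recovered nuclei cannot be told apart.

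**Figure D4:**
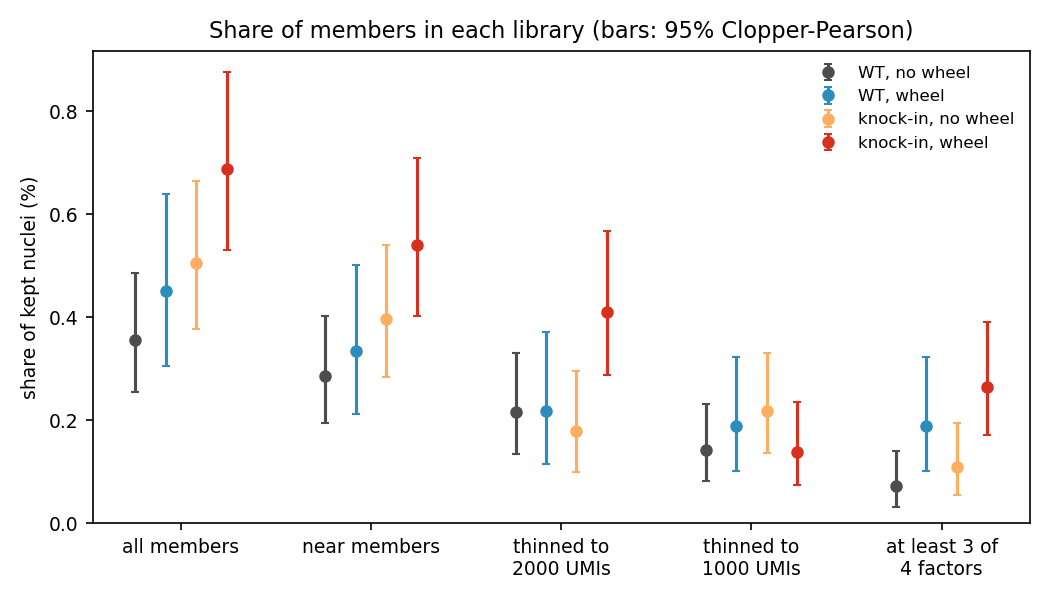
Share of kept nuclei that were Cajal-Retzius nuclei in each library, with 95% Clopper-Pearson bars, for all members, near nuclei, the rule applied after thinning each nucleus to 2000 or 1000 UMIs, and a rule of at least 3 of the 4 factors. The knock-in library with exercise is highest except after thinning to 1000 UMIs. All 4 intervals overlap in near nuclei and after thinning to 2000 or 1000 UMIs.

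Expression within Cajal-Retzius nuclei was then compared between libraries as CPM ratios with conditional binomial 95% intervals, for genes with at least 50 UMIs over both libraries. Knock-in against WT without exercise, 37 of 1435 genes were at least 2-fold higher (2.58%) and 48 at least 2-fold lower (3.34%). Knock-in against WT with exercise, 150 of 2320 were higher (6.47%) and 47 lower (2.03%). With against without exercise, 42 of 1455 were higher (2.89%) and 34 lower (2.34%) in WT, and 245 of 2354 (10.4%) and 59 (2.51%) in the knock-in. The median log2 ratio over 3689 genes was itself -0.16, 0.16, -0.11 and 0.20 in these 4 comparisons. Scaling by TMM instead turned the split for knock-in against WT with exercise to 95 higher and 78 lower, and that for exercise in WT to 67 and 21. In near nuclei, which gave 524, 1142, 387 and 1295 genes with enough UMIs, the shares higher were 2.1%, 16.3%, 1.03% and 14.3% and the shares lower 3.05%, 2.1%, 4.91% and 1.93%. Comparisons that share a library are not independent, and the knock-in library with exercise held the most Cajal-Retzius UMIs.

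Many of the clearest ratios were not found again in near nuclei. Of the 40 named ratios (5 in each direction of each comparison, 32 genes), 19 stayed at least 2-fold the same way in near nuclei, 6 had a near ratio on the other side of 0, 2 shrank below 2-fold and 13 had under 20 UMIs there. Rgs6, a regulator of G protein signalling, stood at 514, 124, 55.5 and 87.7 CPM but had no UMI in near nuclei of either library without exercise. Hs3st4 stood at 1314 CPM in WT with exercise and 326 CPM in knock-in with exercise (log2 ratio -2.01, interval -2.33 to -1.70), whereas in near nuclei the ratio was 1.58 (-0.07 to 3.92) on 3 UMIs in the WT library. The near ratio was also on the other side of 0 for Sgcd (-2.02 against 1.06, -0.42 to 3.00), Erbb4 (-1.80 against 0.52, -0.50 to 1.72), Frmpd4 (-1.52 against 1.54, 0.66 to 2.57) and Cntn4 (-1.62 against 1.27, -0.76 to 4.39998), and for Adarb2 with exercise in WT (1.93 against -0.50, -1.48 to 0.41). Of these 6 near intervals only that of Frmpd4 left out 0. All of these genes but Erbb4 and Adarb2 stood higher in glutamatergic nuclei than in near nuclei, and those 2 higher in inhibitory nuclei. The part of the far nuclei in these ratios was not tested.

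Of the 19 ratios that stayed, 13 were also at least 2-fold the same way over all other kept nuclei, among them Tmem181a (2.28 and 2.25 in Cajal-Retzius nuclei, 1.41 and 2.19 in other nuclei for the genotype pairs), Cmss1, Ube3a, Nrg3os and Atp6v0c. The other 6 moved the same way in other nuclei by less than 2-fold: Trim35 (0.83), Atp6v0b (0.77) and Pde10a (-0.65) between the libraries without exercise, St18 (0.58) between those with exercise, and Ptk2b (0.98) and Fras1 (0.36) for exercise in the knock-in. Atp6v0b, a subunit of the vesicular proton pump, stood at 130 CPM in WT and 409 CPM in the knock-in without exercise (1.66, interval 1.003 to 2.35, and 1.60 in near nuclei). Ptk2b, the calcium-dependent tyrosine kinase PYK2, stood at 75.7 CPM in the knock-in without and 338 CPM with exercise (2.16, and 2.61 in near nuclei). St18 is also an oligodendrocyte gene, and 6 oligodendrocyte markers summed to 259, 114, 394 and 699 CPM in the Cajal-Retzius nuclei, 764, 580, 881 and 1098 CPM in other kept nuclei and 8734 CPM in oligodendrocytes. The part of such RNA in these ratios was not tested.

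In the pairs that share no library, 1409 genes could be measured for genotype in both. Past 2-fold were 77 of them without and 85 with exercise. Of these, 3 were at least 2-fold higher in both (Tmem181a and AY036118 among them) and 6 lower in both (6530403H02Rik, Ccdc85a, Sgcd, Npas3, Cdh12 and Khdrbs3). Another 5 were past 2-fold in opposite directions. In near nuclei, of 519 genes, none was higher in both, 2 were lower in both, Pik3c2g and Wwox, and 3 went in opposite directions. For exercise, 68 of 1435 genes were past 2-fold in WT and 135 in the knock-in. In both genotypes 3 were higher (Adamts17, Grik4 and Sidt1) and 2 lower (Ptprt and Grm8), while 5 went in opposite directions. Of 387 genes in near nuclei, none went the same way in both and 7 went in opposite directions. These genes were named after their values were seen.

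The reelin pathway, guidance and synapse lists were read beside the median of all genes given above. For the genotype pairs without and with exercise, the median log2 ratio was -0.42 and 0.17 for 10 measured reelin pathway genes, -0.27 and -0.03 for 29 guidance genes and -0.27 and -0.34 for 24 synapse organisers. For exercise in WT and in the knock-in it was -0.18 and 0.34, 0.09 and 0.40, and 0.22 and -0.03. Reln itself, part of the rule, was at 3834 CPM in the knock-in against 5670 in WT without exercise and at 6016 against 4151 CPM with exercise, in opposite directions.

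Tmem163 differed between libraries in another way in Cajal-Retzius nuclei than in other classes. In Cajal-Retzius nuclei it stood at 429, 694, 535 and 897 CPM, and in near nuclei at 686, 1868, 920 and 1116 CPM. In all other kept nuclei it stood at 171, 113, 31.9 and 35.8 CPM, in inhibitory nuclei at 126, 81.5, 22.8 and 19.0 CPM and in glutamatergic nuclei at 180, 118, 28.1 and 26.8 CPM. Both knock-in libraries were thus lower than both WT libraries in the other classes, while the Cajal-Retzius values of the genotypes overlapped. Knock-in against WT, the log2 ratio in Cajal-Retzius nuclei was 0.32 (interval -0.11 to 0.75) without and 0.37 (0.08 to 0.66) with exercise, against -2.42 and -1.67 in other nuclei. In near nuclei it was 0.42 (-0.06 to 0.91) and -0.74 (-1.07 to -0.40), so the second pair changed direction but still lay above the ratio of other nuclei. With 1 library per group this difference was not tested.

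Tmem163 lies on chromosome 1 from 127486546 to 127679548 on the minus strand and overlaps Mgat5 on the plus strand, so reads of the pair could not be told apart without strand. Mgat5 stood at 274, 228, 126 and 293 CPM in Cajal-Retzius nuclei and 123, 134, 99.7 and 164 CPM in other kept nuclei. It did not show the fall of Tmem163 in the other classes of both knock-in libraries. Tmem163 was detected in 86.1% of Cajal-Retzius nuclei and 40.9% of glutamatergic nuclei, at median depths of 3147 and 9340 UMIs, and in 20.3% of oligodendrocytes.

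**Figure D5:**
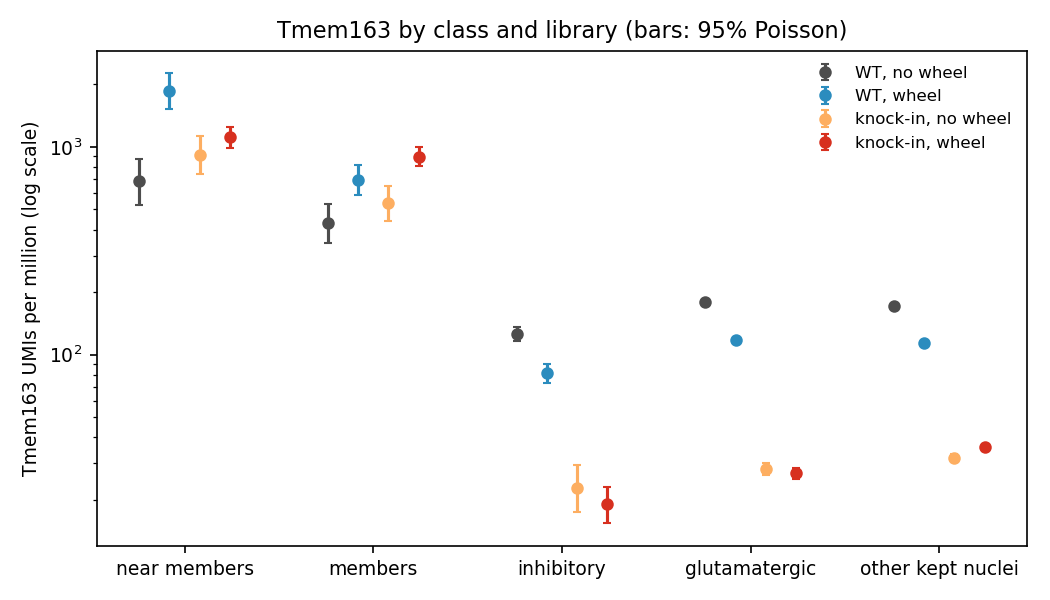
Tmem163 CPM on a log scale by class, with 1 point per library and exact Poisson 95% bars. In the 3 classes on the right both knock-in points lie below both WT points, whereas in the Cajal-Retzius classes on the left the knock-in points lie among or above the WT points.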

How the data were processed

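Nuclei from snap-frozen hippocampus were profiled by droplet sequencing of the 3′ ends of RNA (10x Chromium), 1 library per group. The deposited values are raw UMI counts per gene and nucleus on mm10, written by Cell Ranger 5.0.1 per the file headers (3.1.0 per the submitters' processing notes). Whether intron reads or strand were used by the authors is not stated in the labels or headers. Of 32285 gene identifiers, 32158 matched the GENCODE annotation of GRCm38.

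Counts were summed per library and class of nuclei. Classes were compared with the quasi-likelihood test of edgeR 4.0.16 (R 4.3.3, TMM factors, library as a block, Benjamini-Hochberg adjustment over all genes tested, threshold 0.05), without the rule's genes and, for glutamatergic nuclei, without Slc17a7. DESeq2 1.42.0 was an alternative. The edgeR script was tested on simulated data. Libraries were compared as CPM ratios, with no test, and exact intervals used scipy 1.17.1. Neighbours came from scikit-learn 1.9.0 on 30 principal components, and doublets were scored against simulated ones and kept. The share marked was set beforehand at 0.8% per 1000 kept nuclei of a library, which came to 7.75% of kept nuclei.

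Named genes against a class were the 12 largest log2 fold changes in each direction with 4 of 4 libraries in that direction and at least 100 UMIs, without mitochondrial, ribosomal protein and predicted genes. Between libraries they were the 5 in each direction whose interval lay farthest from 0, among genes with at least 50 UMIs that stood in Cajal-Retzius nuclei at 0.5 times or more their CPM in other nuclei. Rule genes, markers, App and list genes were added as examples. The members and the gene lists were chosen with earlier results of these data known. The edgeR results of near nuclei, thinning to 1000 UMIs and a floor of 1200 UMIs were added after seeing the data.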

Additional observations from a re-analysis of the deposited data

Results flagged for a closer look

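Genotype ratios in Cajal-Retzius nuclei and in all other kept nuclei lay on opposite sides of 0 in both exercise conditions for 44 of 1412 genes, and for 2 of these the ratios differed by more than 1 on the log2 scale in both. For Tmem163, knock-in against WT, the log2 ratio was 0.32 in Cajal-Retzius nuclei and -2.42 in other nuclei without exercise, and 0.37 and -1.67 with exercise. For Lhfpl3 it was -1.24 and 0.0567 without exercise, and -0.33 and 0.75 with exercise, with 2 and 13 UMIs in the near nuclei of the 2 pairs. For exercise, 55 of 1438 genes had opposite signs in both genotypes and none differed by more than 1 in both. With 1 library per group, none of these differences was tested.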

How the results depend on the processing

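Each group had 1 library, so differences between groups have no error beyond counting, and 999464 UMIs over all Cajal-Retzius nuclei limit genes under 50 UMIs. No paired analysis was possible because each group had 1 library, which holds for the comparisons between groups; classes were compared within libraries by the block. Leaving out a library gave 352 to 466 higher and 468 to 652 lower genes against inhibitory nuclei, and 466 to 598 and 941 to 1563 against glutamatergic nuclei. Without the library block there were 280 and 350, and 472 and 453. DESeq2 called 661 lower against glutamatergic nuclei, and no filter 950 lower against inhibitory nuclei. At least 3 factors gave 159 and 372, and 292 and 712, near nuclei 1075 lower against inhibitory nuclei, thinning to 2000 UMIs 362 higher against glutamatergic nuclei, and thinning to 1000 UMIs 294 and 414 against inhibitory and 281 higher against glutamatergic nuclei. The share was 0.0713%, 0.189%, 0.109% and 0.264% with at least 3 factors, 0.216%, 0.217%, 0.179% and 0.410% thinned to 2000 UMIs and 0.143%, 0.189%, 0.218% and 0.137% thinned to 1000.

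Genes at least 2-fold higher and lower between libraries were counted over fewer genes with thinned counts, 3 factors, near nuclei or a minimum of 100 UMIs. Shares could rise there: 28 of 107 were lower for genotype without exercise and 178 of 577 higher for exercise in the knock-in with 3 factors, and 186 of 1142 higher for genotype with exercise in near nuclei. For genotype without exercise they were 7 and 15 (2000 UMIs), 3 and 4 (1000 UMIs), 6 and 28 (3 factors), 8 and 8 (minimum of 100 UMIs) and 11 and 16 (near). For genotype with exercise they were 20 and 9, 6 and 5, 48 higher, 35 and 30, and 24 lower, and 95 and 78 with TMM. For exercise in WT they were 4 and 4, 3 and 1, 11 lower, 22 and 4, and 4 and 19, and 67 and 21 with TMM. For exercise in the knock-in they were 47 and 12, 23 and 3, 16 lower, 93 and 20, and 25 lower. List medians moved to 0.19 for reelin and exercise in WT and 0.13 for synapse organisers and genotype without exercise (2000 UMIs), to 0.96 for guidance and exercise in the knock-in (3 factors), and in near nuclei to 0.90 and -0.37 for guidance (genotype with exercise, exercise in WT) and 0.54, -0.19 and 0.48 for synapse organisers (genotype with exercise, exercise in WT, exercise in the knock-in).

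Signs turned against inhibitory nuclei for Slit2 (-1.06 with 3 factors, -0.92 near), Slit3 (-0.32, -0.68) and Ephb1 (-0.0215 near). For genotype without exercise they turned for Erbb4 (-1.35 with 3 factors, -2.74 with no Gad UMI, -2.19 near) and, with 3 factors, Cpne4 (-1.54), Sgcd (1.07) and Sv2b (0.46). For genotype with exercise they turned for Hs3st4 (1.58), Sgcd (1.06), Erbb4 (0.52), Frmpd4 (1.54) and Cntn4 (1.27) near, Erbb4 with no Gad UMI (0.73) and at 1000 UMIs (0.65), and Frmpd4 at 1000 UMIs (0.0270). For exercise in WT they turned for Cpne4 (-1.86), Hs3st4 (-1.501) and Adarb2 (-0.50) near, Adarb2 (-0.39) and Rgs6 (2.51) with no Gad UMI, Nr3c1 (0.0131) and Efna5 (1.34) with 3 factors and Efna5 at 2000 UMIs (0.0671). The cause was not tested.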
